A study of Mus musculus with 32 samples.

Results

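Quadriceps RNA of 5-week-old male mice without Col6a2 was compared with that of WT males of the same age, gene by gene. The comparison took the 8 libraries titled Col6a2_5W_M and WT_5W_M, 4 mice of each genotype, out of 32 libraries in the series, which also covers females and 25 weeks of age. Col6a2-/- mice were homozygous for the tm1(KOMP)Vlcg allele, which arose on C57BL/6N and had been crossed for 5 generations onto C57BL/6J. They lack the gene in every cell from conception, and heterozygous breeders produced them and the WT controls. Untreated mice of both genotypes gave cryosections of snap-frozen quadriceps. These hold every cell type of the muscle, so that in such bulk RNA fewer cells of a type and less RNA per cell cannot be told apart.

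Collagen VI is a beaded filament of the extracellular matrix around muscle fibres. Its α1 and α2 chains, encoded by Col6a1 and Col6a2, assemble in the cell with another chain, such as that of Col6a3, before secretion, and mutations in these genes cause human muscular dystrophies. Damaged muscle is repaired when satellite cells proliferate, fuse and pass through a stage that uses embryonic forms of the contractile proteins, while macrophages clear debris and interstitial fibroblasts lay down matrix. Transforming growth factor β (TGFβ), which the series title names together with collagen VI, is stored in the matrix in a latent form and induces many matrix genes once released.

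Levels are given in TPM, the share of transcripts scaled to a common total, always for replicates 1 to 4 in that order. Changes are log2 differences, Col6a2-/- minus WT, of log2(TPM + 1), with a standard error (SE) and an adjusted p from limma with Benjamini-Hochberg correction over all 12817 genes tested. A gene is called when its adjusted p lies under 0.05, and only called genes are said to rise or fall. The ratio of the deposited coverage to FPKM, which scales with sequencing depth, was 8.185 to 11.385 in Col6a2-/- and 10.282 to 12.924 in WT libraries, and 11552 to 12610 against 11438 to 11946 genes reached 1 TPM. Mitochondrial genes held 36.36% to 42.36% of TPM in Col6a2-/- and 31.87% to 40.97% in WT libraries. On the first principal component of the 8 libraries, with 36.8% of the variance, Col6a2-/- replicates stood at 36.53, 8.12, 27.37 and -2.76 and WT replicates at -3.65, -22.09, -18.44 and -25.09. On that component Col6a2-/- replicate 4 and WT replicate 1 thus lay side by side, between the other libraries of the 2 genotypes. On the second component, with 18.39% of the variance, they lay far apart, at -27.96 and 21.89.

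Col6a2 (ENSMUSG00000020241, GRCm38 chr10:76595762-76623630, minus strand) was examined first, since it checks the labels. It had 40.8, 31.3, 51.2 and 43.9 TPM in WT and 0.171, 0.047, 0 and 0 TPM in Col6a2-/-, where 2 libraries listed it at 0. No library went against its label. The difference was -5.32 on the log2 scale, with a two-sided exact permutation p of 0.0286, the smallest that 70 splits of 4 against 4 can give. Col6a1 had 59.6, 43.7, 65.2 and 60.0 TPM in WT and 86.6, 65.6, 80.8 and 57 in Col6a2-/-, a difference of 0.33 (SE 0.261, adjusted p 0.501). Col6a3 had 54.1, 39.7, 67.1 and 58.8 against 109, 71.7, 86.0 and 49.9 TPM, a difference of 0.49 (SE 0.28, adjusted p 0.342). The lowest Col6a2-/- value of both partner chains came from replicate 4 and fell inside the WT range, and neither gene was called. Col6a6, which encodes a chain that can take the place of that of Col6a3, differed by 0.18 (adjusted p 0.739), and Col6a4 and Col6a5 were too low to be tested.

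Of the 12817 genes tested, 583 (4.55%) rose and 62 (0.484%) fell, together 645 (5.03%). Each count of called list members given further on stands against these shares of all genes. At 2-fold or more, 132 genes (1.03%) rose and 5 (0.039%) fell. The 4 Col6a2-/- values lay wholly above the 4 WT values in 1194 genes (9.32%) and wholly below them in 199 (1.55%), whether called or not. Both conditions, a call and no overlap, held in 537 higher (4.19%) and 55 lower genes (0.429%). Over all tested genes the median difference was 0.12, and 9546 genes lay above 0. Rescaling by the median of ratios moved that median to 0.000 and quantile normalization to -0.018, which gave 612 higher and 470 lower genes and 606 and 545 genes, so the excess of higher over lower genes depended on the scaling. Without mitochondrial and Rn7s genes, which together take most of the TPM, 1309 genes were higher and 37 lower. Replicate 1 was the highest of the 4 Col6a2-/- libraries in 395 of the 583 higher genes (67.8%), and replicate 4 the lowest in 380 (65.2%). The count of called genes was 313 without Col6a2-/- replicate 1, 1003 without Col6a2-/- replicate 4, 407 without WT replicate 2 and 398 without WT replicate 4. It was 991 without replicate 2 of the 5-week Col6a2-/- females, which share the estimate of spread.

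Sln, Aldh3a1, Mymx and Myl4 had the largest increases, of which Aldh3a1 and Myl4 are described further on. Sln (ENSMUSG00000042045, chr9:53850164-53854560) encodes sarcolipin, a small membrane protein that inhibits the calcium pump of the sarcoplasmic reticulum. It had 0.944, 0.874, 1.47 and 0.471 TPM in WT and 83.0, 61.2, 70.2 and 57.9 in Col6a2-/-, a change of 5.16 (SE 0.422, adjusted p 1.6e-09). Mymx (ENSMUSG00000079471, chr17:45600971-45602102), which encodes the fusion protein myomixer, went from 0.111, 0.363, 0.239 and 0.0498 TPM to 19.3, 13.7, 16.4 and 14.7 TPM, a change of 3.84 (SE 0.229, adjusted p 1.4e-12). In both genes the 4 Col6a2-/- mice lay close together and far above every WT mouse. Mymk, which encodes myomaker, the membrane partner of myomixer in fusion, had 0.956, 0.982, 0.912 and 0.877 TPM in WT and 6.42, 4.66, 6.49 and 4.21 in Col6a2-/- (change 1.72, adjusted p 7.1e-07). Myog, a transcription factor of terminal myoblast differentiation, had 5.09, 5.45, 4.94 and 7.33 against 20.9, 17.8, 22.3 and 13 TPM (change 1.53, adjusted p 0.000585). The genotypes did not overlap in either gene, and Col6a2-/- replicate 4 was the lowest of its group in both.

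Among 14 tested genes for satellite cells and myogenic factors, 6 rose and none fell, with a median of 0.433 against 0.12 over all genes. The smaller changes were Megf10 (0.56, adjusted p 0.0253), a receptor of satellite cells, and the myogenic factors Myf5 (0.39, adjusted p 0.00999) and Myf6 (0.36, adjusted p 0.0457). The list's count was 3 without WT replicate 3, since these smaller calls were lost there at adjusted p 0.0681, 0.0533 and 0.0676, and without Col6a2-/- replicate 1 they stood at 0.141, 0.0609 and 0.14. Megf10 also lost its call without WT replicate 2 (0.0735) or Col6a2-/- replicate 3 (0.0862). Myf6 lost it in 13 of the leave-one-out fits, including WT replicates 2 (0.148) and 4 (0.147) and Col6a2-/- replicates 2 (0.113) and 3 (0.102), and 7 in which a library of another group was left out (0.0519 to 0.0544). Myod1, another myogenic factor, had 2.03, 3.07, 2.1 and 2.82 TPM in WT and 5.0, 5.61, 6.72 and 1.54 in Col6a2-/-. Col6a2-/- replicate 4 lay below all WT mice and the others above them, and Myod1 was not called (0.60, adjusted p 0.17). Without that replicate it was called (0.95, adjusted p 0.00484). Pax7, the marker of satellite cells, stayed below the filter at 0.377 to 0.682 TPM in WT and 0.257 to 0.526 in Col6a2-/-. Of 16 tested genes of the cell cycle, 1 rose, near the 4.55% of all genes, namely the ribonucleotide reductase subunit Rrm2 (0.59, adjusted p 0.0261), a call lost without WT replicate 3 or 4 or Col6a2-/- replicate 1, 2 or 3 (adjusted p 0.0527 to 0.14). Without Col6a2-/- replicate 4 the list held 3 called genes.

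Rrad, a small GTPase that restrains calcium channels and is induced in damaged muscle, had 1.96, 1.43, 0.951 and 0.555 TPM in WT and 26.2, 27.5, 26.8 and 7.83 in Col6a2-/- (change 3.27, SE 0.358, adjusted p 5.3e-07). Replicate 4 lay apart from the other Col6a2-/- mice and above all WT mice. Sln and Rrad were the 2 called members of the 19 calcium handling genes tested, whose median was -0.156. Other scalings gave medians from -0.31 to -0.064 and up to 5 members called lower. Ankrd1, a stretch-induced protein of the sarcomere, had 4.1, 2.0, 5.29 and 2.05 TPM in WT and 14.3, 10.8, 10.2 and 8.95 in Col6a2-/- (change 1.53, adjusted p 0.00155), again without overlap. Of 17 tested genes of the stress and stretch response it was the 1 that rose, and its relative Ankrd23 the 1 that fell (-0.58, adjusted p 0.0488). Ankrd23 shares 78.2% of its exons with Gm42417 and lost its call without any 1 of 7 of the 8 libraries, all but Col6a2-/- replicate 3 (0.0651 to 0.163), and in 10 fits without a library of another group (0.0509 to 0.0571).

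**Figure D1:**
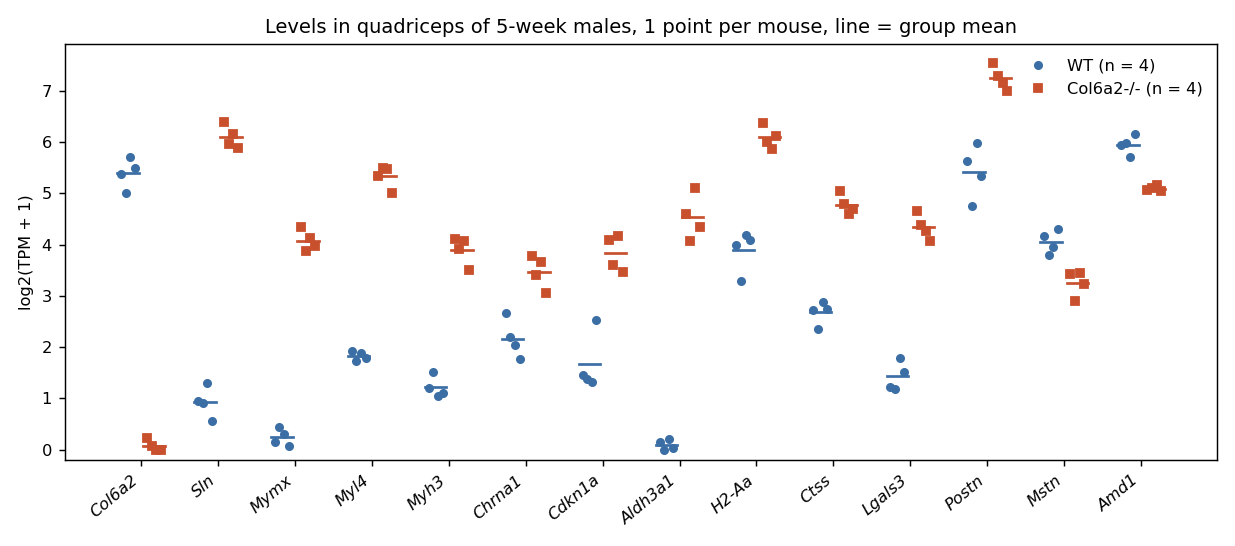
Level of 14 genes in each 5-week male library, as log2(TPM + 1) on the vertical axis, with 1 point per mouse (blue circles WT, orange squares Col6a2-/-, replicates 1 to 4 from left to right) and a line at each group's mean. Sln, Mymx and Aldh3a1 lie near the floor in WT and apart from it in all 4 Col6a2-/- mice, while Mstn and Amd1 lie lower in Col6a2-/-.

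Embryonic forms of contractile proteins rose in part. Myl4, the embryonic and atrial light chain of myosin, had 2.78, 2.34, 2.69 and 2.44 TPM in WT and 39.7, 44.3, 43.6 and 31.1 in Col6a2-/- (change 3.50, SE 0.227, adjusted p 6.2e-12). Myh3, the embryonic myosin heavy chain, had 1.3, 1.87, 1.07 and 1.15 against 16.2, 14, 15.9 and 10.3 TPM (change 2.68, SE 0.225, adjusted p 2.4e-09). Tnnt2, the cardiac troponin T also made in developing muscle, went from 1.33 to 1.51 TPM in WT to between 4.61 and 7.71 TPM (change 1.65, adjusted p 2.9e-06). These 3 of the 10 embryonic and neonatal sarcomere genes rose and none fell. Myh8, the perinatal myosin heavy chain, had 115 to 139.6 TPM in WT and 89.2 to 145 in Col6a2-/- (-0.15, adjusted p 0.649). Actc1, the cardiac form of α-actin used before birth, had 2327, 1592, 2879 and 1738 TPM in WT and 1330, 1141, 1693 and 1012 in Col6a2-/- (-0.71, adjusted p 0.28), with overlapping groups. The median of the 10 genes was -0.055. Under other scalings it ran from -0.205 to 0.035 and up to 2 members were called lower.

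Genes of the neuromuscular junction and of the response to loss of innervation included 8 of 17 tested that rose and 0 that fell, with a median of 0.55. Myog, described above, is among the 8 and is also counted in the myogenic list. Over all alternatives 5 to 10 were called higher, and 1 lower under another scaling. The acetylcholine receptor, the channel that opens when the nerve fires, uses the γ subunit of Chrng in fetal and denervated muscle and the ε subunit of Chrne at the mature synapse. Chrng had 0.217, 0.0773, 0.0856 and 0.0264 TPM in WT and 2.37, 1.67, 2.5 and 1.96 in Col6a2-/- (change 1.5, SE 0.132, adjusted p 5.7e-09). Chrna1, the α subunit, had 5.32, 3.58, 3.13 and 2.41 against 12.8, 9.57, 11.7 and 7.28 TPM (change 1.31, SE 0.255, adjusted p 0.00154), and Chrnd, the δ subunit, changed by 1.22 (adjusted p 2.9e-05). In all 3 genes each Col6a2-/- mouse lay above each WT mouse. Chrne had 9.79, 7.25, 5.31 and 4.24 TPM in WT and 8.7, 6.18, 10.1 and 5.74 in Col6a2-/- (0.21, adjusted p 0.742), and the β subunit gene Chrnb1 was not called either (0.55, adjusted p 0.0986), except in 5 of the alternative fits (0.0185 to 0.0353). Musk, the kinase that gathers receptors at the synapse, changed by 0.64 (adjusted p 0.00892), the adhesion molecule Ncam1 by 1.24 (adjusted p 0.00126), and the transcription factor Runx1 by 1.31 (adjusted p 6.3e-05). Gadd45a, a stress gene induced by denervation, had 6.18 to 7.51 TPM in WT and 21.3 to 30.2 in Col6a2-/- (change 1.74, adjusted p 4.5e-05), although a non-coding gene covers 19.1% of its exons and the use of strand is not stated. The summed level of the list was 64.1 to 77.8 TPM in WT and 107 to 162 in Col6a2-/-. Markers of Schwann cells, the glia of the nerve, summed to 61.6 to 198 TPM in WT and 39.5 to 96.5 in Col6a2-/-, with 0 of 7 tested members called.

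Windows around the starts of these subunit genes are shown because E-boxes bound by myogenic factors are known in receptor promoters. The motif CAGCTG, which reads the same on both strands and does not overlap itself, was searched in windows of 250 bases before and 50 after each start, from RefSeq on GRCm38.p6. It occurred in 3 of the 4 subunit genes with a window (Chrna1, Chrng and Chrne, not Chrnb1), against 16.3% of 32851 windows of the same length, and these genes were picked after their values were seen. In Chrna1 (chr2:73580289-73580588, minus strand) it begins 92 and 44 bases before the start, and in Chrng (chr1:87205561-87205860, plus strand) 155 and 132 bases before it. Capitals mark the motif.
Chrna1: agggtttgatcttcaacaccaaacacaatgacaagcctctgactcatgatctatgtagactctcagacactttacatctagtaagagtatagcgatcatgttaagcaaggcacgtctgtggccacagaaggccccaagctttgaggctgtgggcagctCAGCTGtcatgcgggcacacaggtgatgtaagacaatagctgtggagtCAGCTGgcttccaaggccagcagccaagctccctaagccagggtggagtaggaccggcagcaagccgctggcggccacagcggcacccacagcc
Chrng: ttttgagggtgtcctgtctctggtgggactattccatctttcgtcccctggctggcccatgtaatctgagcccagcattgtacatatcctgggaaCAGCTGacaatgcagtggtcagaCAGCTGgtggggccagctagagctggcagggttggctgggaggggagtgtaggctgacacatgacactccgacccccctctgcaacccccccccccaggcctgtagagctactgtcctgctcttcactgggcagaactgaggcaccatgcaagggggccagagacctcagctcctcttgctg
The motif stands both in genes that rose and in Chrne, which was not called. Of the 20 genes with the largest changes, 14 had a window. CAGCTG occurred in 4 of them (H2-Eb1, H2-Aa, Cdkn1a and C130080G10Rik), and TGANTCA, the motif of AP-1 factors searched on both strands, in 0 against 7.81% of all windows.

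Fibre type was uneven among the mice of each genotype. The slow fibre genes summed to 167, 745, 433 and 116 TPM in WT and 175, 915, 643 and 747 in Col6a2-/-. Myh7, the slow myosin heavy chain, had 6.1, 66.1, 38.8 and 1.49 against 3.31, 79.3, 46.6 and 68.8 TPM (1.15, SE 0.912, adjusted p 0.509), and Tnnt1, slow troponin T, followed the same order of mice (1.28, adjusted p 0.341). None of the 11 slow genes tested was called, although their median was 0.801. Of 15 fast fibre genes 1 fell, the tropomyosin gene Tpm1, with 5857, 4993, 5884 and 5662 TPM in WT and 3916, 3749, 4561 and 3783 in Col6a2-/- (-0.49, SE 0.141, adjusted p 0.0399). Its call was lost when WT replicate 1, 3 or 4 or Col6a2-/- replicate 1, 2 or 4 was left out (adjusted p 0.064 to 0.117). Myh4, the fastest myosin heavy chain and the most abundant here, had 6119, 5143, 5673 and 5238 against 4763, 2930, 4909 and 2931 TPM (-0.55, adjusted p 0.155), so that its groups did not overlap while it was not called. The median of the fast genes was -0.361, and 0 to 11 of them were called lower under other scalings. Tpm1 was not called when scaled without mitochondrial and Rn7s genes (adjusted p 0.0537) or without a filter on low TPM (0.0857). Myh1 and Myh2, of intermediate fast fibres, differed by 0.82 (adjusted p 0.112) and 0.61 (adjusted p 0.454).

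Several of the largest decreases were in long RNAs with no known protein. Myhas, an RNA read from the fast myosin cluster on chromosome 11, had 40.4, 29.3, 35.0 and 37.5 TPM in WT and 16.9, 13.3, 21.2 and 12.5 in Col6a2-/- (-1.13, SE 0.259, adjusted p 0.00691). It shares 25.4% of its exons with Myh1, which makes its level uncertain. The RNA 2310065F04Rik from the same cluster had 22.6 to 30.2 TPM in WT and 11.2 to 15.6 in Col6a2-/- (-0.99, adjusted p 0.00084), again with no overlap. B230312C02Rik fell by 1.43 on the log2 scale (adjusted p 0.00344), from between 33.7 and 47.5 TPM to between 12.0 and 21.2 TPM, and AC162693.1 by 1.03 (adjusted p 0.000323). Gm12224 fell by 0.86 (adjusted p 5.6e-05), although 18.5% of its exons lie in Acsl6. C130080G10Rik, which lies beside Actc1 on chromosome 2 and shares 38.7% of its exons with A530058N18Rik, fell by 0.93 (adjusted p 0.012), and lost its call without WT replicate 3 (adjusted p 0.0534) or with a pseudocount of 0.1 (0.146). Of the genes with a known product, Fgfbp1, which releases fibroblast growth factors from the matrix, had 1.56, 2.45, 1.24 and 4.43 TPM in WT and 0.864, 0.412, 0.515 and 1.1 in Col6a2-/- (-0.92, adjusted p 0.0173). That call was lost without WT replicate 2 or 4 or Col6a2-/- replicate 2 or 3 (adjusted p 0.0551 to 0.114).

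Of 20 macrophage genes tested, 15 rose and none fell, with a median of 0.887. That count was 12 without Col6a2-/- replicate 1, 17 without Col6a2-/- replicate 4, and 10 to 18 over all alternatives. The list's summed level was 94.9 to 144 TPM in WT and 324 to 464 in Col6a2-/-. Adgre1, which encodes the surface marker F4/80, had 3.95, 2.32, 3.61 and 3.57 TPM in WT and 15.5, 11.2, 10.7 and 8.65 in Col6a2-/- (change 1.51, SE 0.277, adjusted p 0.000861). Ctss, the lysosomal protease cathepsin S that trims MHC class II ligands, had 5.65, 4.09, 6.4 and 5.68 against 32, 26.8, 23.2 and 24.8 TPM (change 2.11, SE 0.242, adjusted p 1.3e-06). Ccr2, the chemokine receptor of recruited monocytes, had 1.8, 0.866, 1.43 and 0.738 against 9.52, 7.06, 9.05 and 3.61 TPM (change 1.87, adjusted p 8.8e-05). In these genes every Col6a2-/- mouse exceeded every WT mouse. Lyz2, a lysozyme whose reads can be split with its near copy Lyz1, went from between 29.1 and 48.2 TPM to between 139.8 and 204 TPM (change 1.96, adjusted p 1.9e-05). Cd68, a lysosomal marker, changed by 1.08 (adjusted p 0.00665), and Csf1r, the growth factor receptor of macrophages, by 0.91 (adjusted p 0.0102), a call lost without WT replicate 2 (0.0584) or Col6a2-/- replicate 1 (0.0626). Csf1r shares 15.1% of its exons with Hmgxb3. Mrc1 and Cd163, surface receptors of resident and tissue-repair macrophages, differed by 0.49 (adjusted p 0.241) and 0.60 (adjusted p 0.0647) and were not called, although Cd163 was in 6 of the alternative fits (0.0192 to 0.0489).

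All 6 tested genes of MHC class II, the complex that presents antigen to helper T cells, rose. H2-Aa had 15.0, 8.76, 17.2 and 16.1 TPM in WT and 82.1, 63.4, 57.2 and 68.8 in Col6a2-/- (change 2.20, SE 0.315, adjusted p 4.4e-05), and H2-Eb1 had 7.8, 4.43, 8.34 and 7.8 against 43.8, 34.1, 30.1 and 35.2 TPM (change 2.20, SE 0.303, adjusted p 2.6e-05). H2-Ab1 changed by 2.13, the invariant chain Cd74 by 2.07, and the loading factors H2-DMb1 and H2-DMa by 1.42 and 1.06, with adjusted p values from 4.4e-05 to 0.00117 among these 4, and H2-DMa shares 10.4% of its exons with Brd2. The list summed to 33.3 to 65 TPM in WT and 182 to 288 in Col6a2-/-, and its 6 calls held without each of the 8 libraries. Of 12 markers of lymphocytes and neutrophils, 2 passed the filter and 0 were called. They summed to 0.353 to 1.46 TPM in WT and 1.8 to 4.57 in Col6a2-/-, Cd3e of T cells was listed at 0 in all 4 WT libraries, and Ly6g of neutrophils at 0 in all 8.

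The starts of 2 of these genes are shown because CTGATTGG, which contains the CCAAT box read on the other strand, is part of the known promoter element of class II genes. This motif was added after the values were seen. It occurred in 2 of the 4 class II genes with a RefSeq window on GRCm38.p6 (H2-Aa and H2-Eb1, not H2-DMa or H2-DMb1), against 4.1% of the 32851 windows, with both strands searched. It begins 51 bases before the start of H2-Aa (chr17:34287774-34288073, minus strand) and 62 bases before that of H2-Eb1 (chr17:34305617-34305916, plus strand). Capitals mark it.
H2-Aa: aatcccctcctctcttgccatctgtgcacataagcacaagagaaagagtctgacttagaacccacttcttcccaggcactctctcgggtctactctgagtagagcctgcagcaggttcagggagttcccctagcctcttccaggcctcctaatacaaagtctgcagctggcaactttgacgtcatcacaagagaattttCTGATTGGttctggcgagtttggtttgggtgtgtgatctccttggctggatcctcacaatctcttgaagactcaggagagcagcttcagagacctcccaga
H2-Eb1: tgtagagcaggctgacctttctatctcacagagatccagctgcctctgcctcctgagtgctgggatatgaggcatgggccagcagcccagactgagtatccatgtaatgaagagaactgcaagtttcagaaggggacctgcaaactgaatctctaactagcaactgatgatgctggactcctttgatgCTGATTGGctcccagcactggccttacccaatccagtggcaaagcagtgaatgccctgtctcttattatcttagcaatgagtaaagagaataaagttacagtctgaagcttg
The 2 genes that carry it rose by 2.20 each, and H2-DMb1 and H2-DMa, without an exact match, by 1.42 and 1.06. The H2-DMb1 window holds GTGATTGG, which differs from the motif only in its first base and contains the same CCAAT box. A link between the motif and the size of the change was not tested.

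Of 15 complement genes 8 rose, with a median of 0.711. The C1q subunit genes C1qa, C1qb and C1qc, made by macrophages and also counted among their markers, changed by 1.32, 1.32 and 1.15. Cfb, factor B of the alternative pathway, had 3.2, 1.33, 1.93 and 2.2 TPM in WT and 13.8, 8.65, 7.52 and 9.39 in Col6a2-/- (change 1.78, adjusted p 0.000127). C4b, of the classical pathway, rose by 1.32 (adjusted p 0.0237), but replicate 1 held 17.4 TPM where the other Col6a2-/- mice had 5.78 to 7.1, and without it the change was 0.99 (adjusted p 0.159). That call was also lost without WT replicate 2, 3 or 4 (adjusted p 0.0528 to 0.0869). Of 14 chemokine and receptor genes 7 rose, among them Ccl8, a monocyte attractant, with 2.58, 0.727, 3.46 and 1.25 against 15.1, 9.59, 10.5 and 10.7 TPM (change 2.13, adjusted p 0.00208). Ccl6 and Ccl9, also monocyte attractants, changed by 1.61 (adjusted p 0.000738) and 1.35 (adjusted p 0.00011). Over all alternatives 6 to 11 complement genes and 4 to 10 chemokine and receptor genes were called higher.

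Interferon-stimulated genes were higher in number too, with 7 of 17 called and a median of 0.649. Ifitm3, an antiviral membrane protein, had 34.0, 24.9, 32.6 and 22.1 TPM in WT and 88.5, 54.6, 74.5 and 57.9 in Col6a2-/- (change 1.24, adjusted p 0.0014). Irf7, a transcription factor of this response, changed by 1.11 (adjusted p 0.00214). The list's count was 3 without WT replicate 4 and 8 to 12 under other scalings. Lgals3, or galectin-3, a sugar-binding protein abundant in macrophages, had 1.34, 1.26, 2.46 and 1.87 TPM in WT and 24.3, 19.9, 18.2 and 15.9 in Col6a2-/- (change 2.92, SE 0.256, adjusted p 5.7e-09). No library of the genotypes overlapped in Lgals3. The cathepsin list, to which Ctss also belongs, had 4 of 11 genes higher, among them the lysosomal protease Lgmn (change 1.21, adjusted p 0.000173). The cathepsin count was 5 to 8 under other scalings. Of 18 S100 and annexin genes 8 rose, led by S100a4 (change 1.33, adjusted p 0.00213), a calcium-binding protein of fibroblasts and immune cells. That count was 2 without WT replicate 2.

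**Figure D2:**
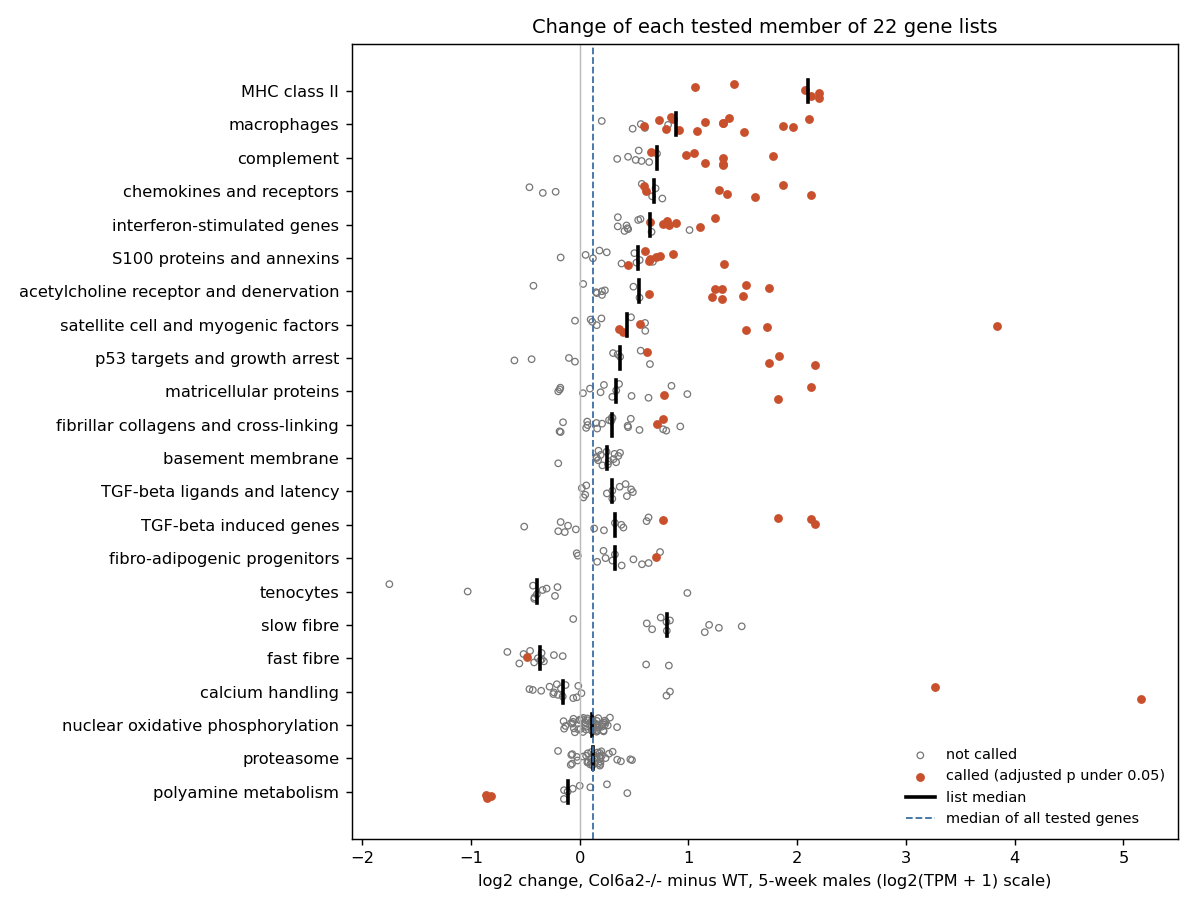
Change of each tested member of 22 gene lists in 5-week males, with the log2 difference (Col6a2-/- minus WT) on the horizontal axis and 1 list per row. Orange points are called genes, open points are not, black bars are list medians, and the dashed line is the median of all tested genes at 0.12. The median of MHC class II lies farthest to the right, with 6 of 6 genes called. The proteasome and oxidative phosphorylation lists have medians of 0.123 and 0.116 with 0 called.

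Genes of the extracellular matrix were divided between a few that rose strongly and many that were not called. Cilp, a matrix protein of cartilage and interstitial fibroblasts that binds TGFβ1, had 17.8, 13.8, 30.0 and 19.5 TPM in WT and 128, 84.2, 90.4 and 64.1 in Col6a2-/- (change 2.13, SE 0.317, adjusted p 6.3e-05). Postn, or periostin, a matricellular protein of fibroblasts, had 48.6, 26.0, 62.3 and 39.5 against 185, 155, 142 and 127 TPM (change 1.82, SE 0.423, adjusted p 0.00804). Aspn, the proteoglycan asporin, had 24.5, 17.3, 27.3 and 21.8 against 63.2, 53.3, 46.9 and 48.5 TPM (change 1.20, SE 0.21, adjusted p 0.000577). Every Col6a2-/- mouse exceeded every WT mouse in these 3 genes, and each kept its call without any 1 of the 8 libraries. Bgn, or biglycan, a proteoglycan that binds collagen VI, changed by 0.90 (adjusted p 0.0189), a call lost without WT replicate 1 or 2 or Col6a2-/- replicate 1 or 3 (adjusted p 0.051 to 0.0995). Fbln2, a fibulin of elastic fibres, changed by 0.63 (adjusted p 0.0101) and lost its call without Col6a2-/- replicate 1 (0.0622).

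Of 22 tested genes for fibrillar collagens and their cross-linking, 2 rose, the lysyl hydroxylase Plod2 (0.76, adjusted p 0.0243) and the lysyl oxidase Loxl1 (0.71, adjusted p 0.0367), and the median was 0.294. Other scalings called 3 to 6 of them. Neither call held without WT replicate 2 (adjusted p 0.103 and 0.0966), WT replicate 4 (0.0814 and 0.0995) or Col6a2-/- replicate 1 (0.0936 and 0.204), and that of Loxl1 also failed without WT replicate 1 or 3 or Col6a2-/- replicate 2 or 3 (0.0502 to 0.0721). Col1a1, of the main fibrillar collagen, had 147, 114, 523 and 334 TPM in WT and 143 to 419 in Col6a2-/-, where replicate 1 was highest (-0.17, adjusted p 0.874), and turned to 0.21 without WT replicate 3. Col3a1 had 519.7, 338, 489.6 and 435 against 957, 732, 822 and 593 TPM (0.80, adjusted p 0.143), without overlap and without a call. It was called with only these 8 libraries in the fit (0.0222) or when scaled without mitochondrial and Rn7s genes (0.0463). Fn1, or fibronectin, differed by 0.62 (adjusted p 0.409). Of 15 basement membrane genes 0 were called, with changes from -0.20 to 0.37. Among 18 metalloproteinase and inhibitor genes 4 rose, including Adam8 (0.91, adjusted p 0.00613), a protease of leukocytes, and Mmp19 (0.84, adjusted p 0.00248), whose exons overlap Tmem198b by 22.3%. That count was 2 without WT replicate 2. Markers of fibro-adipogenic progenitors, the fibroblasts of muscle, summed to 394 to 566 TPM in WT and 565 to 764 in Col6a2-/-, with 1 of 13 called, near the 4.55% of all genes. That gene, Mfap5 (0.70, adjusted p 0.0221), was not called without WT replicate 2 (0.0907) or 4 (0.0626) or Col6a2-/- replicate 1 (0.153). Under other scalings 1 to 4 of the 13 were called higher. Pdgfra, which defines these cells, had 12.7, 8.0, 10.7 and 9.59 against 16.2, 12.9, 14.1 and 11.4 TPM (0.39, adjusted p 0.191). Tenocyte markers summed to 111, 69.2, 390.5 and 216 TPM in WT and 267, 116, 148 and 107 in Col6a2-/-, with WT replicate 3 highest as for Col1a1. Their part in the matrix changes was not tested.

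Genes of the TGFβ pathway itself were mostly not called. Tgfb1, the ligand best known in fibrosis, had 1.18, 1.3, 1.68 and 0.965 TPM in WT and 2.4, 1.64, 2.1 and 1.18 in Col6a2-/- (0.30, SE 0.151, adjusted p 0.272). Tgfb2 differed by 0.03 (adjusted p 0.925) and changed sign under other scalings. Tgfb3 had 5.12, 4.94, 5.35 and 5.96 against 8.49, 7.2, 8.78 and 6.02 TPM (0.43, SE 0.144, adjusted p 0.0806), with no overlap, and was called in 5 of the alternative fits (adjusted p 0.0107 to 0.046). None of the 12 tested genes for TGFβ ligands and their latency proteins was called, all 12 lay above 0, and their median was 0.30. Of 14 receptors and Smads 1 rose, also near the 4.55% of all genes. It was the type I receptor Tgfbr1, with 6.85, 5.72, 6.79 and 7.15 TPM in WT and 15.1, 10.8, 12.6 and 7.69 in Col6a2-/- (change 0.69, SE 0.166, adjusted p 0.0109). Its call was lost without WT replicate 2 (0.0517) or Col6a2-/- replicate 1 (0.087), and 2 genes of the list were called without Col6a2-/- replicate 2. Under other scalings 1 to 3 of the 14 were called higher. Of 17 genes known to be induced by TGFβ 4 rose, with a median of 0.324: Cilp, Postn, the cell cycle inhibitor Cdkn1a and the repressor Tgif1 (0.77, adjusted p 0.00725, and 0.0635 without Col6a2-/- replicate 1). Cilp and Postn are made by fibroblasts, and Cdkn1a is also a target of p53.

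Mstn encodes myostatin, a TGFβ family member made by muscle fibres that limits their growth. It had 17, 12.9, 14.6 and 18.9 TPM in WT and 9.83, 6.44, 9.92 and 8.41 in Col6a2-/- (-0.81, SE 0.216, adjusted p 0.0246), so all 4 Col6a2-/- mice lay below all WT mice. The call was lost without WT replicate 1 (0.0566), WT replicate 4 (0.0963) or Col6a2-/- replicate 2 (0.0917). Of 8 tested genes for myostatin and activin signalling it was the 1 called, and other scalings called 1 to 3 lower and up to 1 higher.

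Cdkn1a, which encodes p21, had 1.75, 1.59, 1.51 and 4.78 TPM in WT and 16, 11.2, 16.9 and 10.1 in Col6a2-/- (change 2.16, SE 0.301, adjusted p 3e-05). Eda2r, a receptor of the tumour necrosis factor family and a p53 target, had 2.41 to 4.0 TPM in WT and 9.94 to 16 in Col6a2-/- (change 1.83, adjusted p 6.7e-06). Together with Gadd45a and Bax (0.62, adjusted p 0.0267), 4 of the 13 p53 targets tested rose. The call of Bax, an effector of apoptosis, was lost without WT replicate 1 or 4 or Col6a2-/- replicate 1 or 3 (adjusted p 0.0546 to 0.127). Of 15 genes of atrophy 2 rose, and 1 without WT replicate 3. Fbxo32, the muscle ubiquitin ligase atrogin-1, had 6.86, 8.1, 4.55 and 10.5 TPM in WT and 26.9, 16.7, 21.9 and 16.9 in Col6a2-/- (change 1.37, SE 0.203, adjusted p 6.3e-05). Trim63, the ligase MuRF1 that often moves with it, had 43.9, 42.2, 38.5 and 42.3 against 62.4, 45.0, 55.2 and 58.4 TPM (0.39, SE 0.172, adjusted p 0.204), without overlap and without a call. Among 21 genes of autophagy 1 rose, Map1lc3a (0.59, adjusted p 0.002), of the LC3 family on autophagosomes, a share close to the 4.55% of all genes called higher. Under other scalings up to 3 of the 21 were called higher and up to 2 lower.

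Oxidative phosphorylation (50 nuclear genes) and the proteasome (38) had 0 genes called at medians of 0.116 and 0.123, close to the 0.12 of all genes. The groups did not overlap in 1 and 3 of their genes, all higher in Col6a2-/-, against 9.32% of all genes tested. Ppif, which encodes cyclophilin D of the mitochondrial permeability pore, had 8.14 to 11.5 TPM in WT and 9.4 to 13.1 in Col6a2-/- (0.15, adjusted p 0.562). Aldh3a1, an aldehyde dehydrogenase known from the cornea, had 0.117, 0, 0.148 and 0.0232 TPM in WT and 23.2, 15.9, 33.4 and 19.3 in Col6a2-/- (change 4.43, SE 0.286, adjusted p 6.2e-12), the second largest increase. Of 18 genes for metallothioneins and the response to oxidants 4 rose, and 2 without WT replicate 2. Mt2, a metallothionein that binds zinc and copper, had 1.69, 1.48, 4.71 and 11.4 TPM in WT and 15.9, 10.0, 9.3 and 35.9 in Col6a2-/- (change 1.81, adjusted p 0.00541), with WT replicate 4 above 2 of the Col6a2-/- mice. The call of Mt2 was lost with only the 8 libraries of this comparison in the fit (adjusted p 0.0695) or only the 5-week libraries (0.0528). Mt3 changed by 1.58 (adjusted p 2.5e-06). Of 11 polyamine genes 3 were called lower, Amd1, its near copy Amd2 and Smox. Amd1, the decarboxylase that supplies the aminopropyl groups of polyamines, had 60.2, 62.6, 51.4 and 70.4 TPM in WT and 32.5, 33.3, 35.0 and 32.1 in Col6a2-/- (-0.85, SE 0.162, adjusted p 0.00126). Amd2 (-0.82, adjusted p 0.00144) and the pseudogene copies Amd-ps3 (-0.72) and Amd-ps4 (-0.64) are nearly identical to it, so Amd1 and Amd2 do not count as separate genes and the list holds 2 separate calls. Smox, spermine oxidase, was also lower (-0.86, adjusted p 0.0431), a call lost without WT replicate 2, 3 or 4, Col6a2-/- replicate 1 or 2, or WT 5-week female replicate 3 (0.05 to 0.199).

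**Figure D3:**
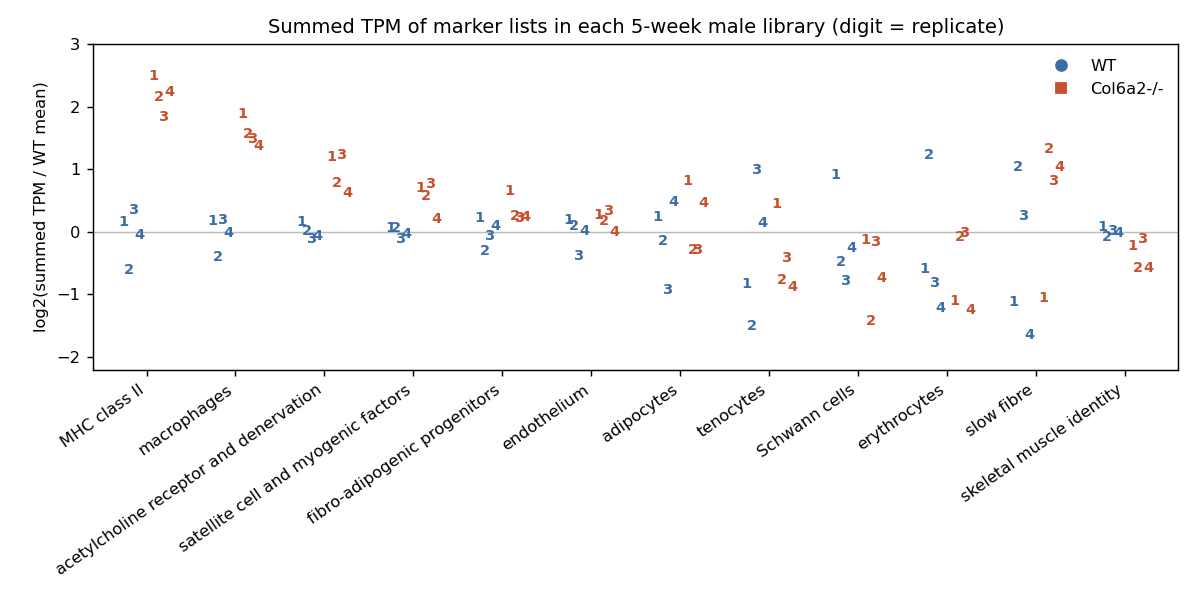
Summed TPM of 12 marker lists in each 5-week male library, as the log2 ratio to the WT mean of the same list on the vertical axis. Digits give the replicate, blue for WT and orange for Col6a2-/-. The MHC class II, macrophage, receptor and myogenic lists separate the genotypes, the slow fibre, adipocyte, tenocyte and Schwann cell lists do not, and skeletal muscle identity lies below every WT library in all 4 Col6a2-/- libraries.

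The tissue label was checked by genes that define skeletal muscle. Acta1, the skeletal α-actin, had 8818 to 9419 TPM in WT and 6999 to 9450 in Col6a2-/- (-0.27, adjusted p 0.19), and Ckm, muscle creatine kinase, 3212 to 4070 against 2477 to 3151 (-0.41, adjusted p 0.0621). The 10 genes summed to 37295 to 41875 TPM in WT and 26526 to 36529 in Col6a2-/-, with 0 called, so their summed level was lower in every Col6a2-/- library while macrophage genes were higher. Its part in the other changes was not tested. Endothelial genes summed to 114 to 170.2 TPM against 149 to 188, adipocyte genes to 322 to 853 against 497 to 1071, and erythrocyte genes to 419.5 to 2298 against 410.1 to 964, with 0 called in each. Genes around Col6a2 on chromosome 10 can carry C57BL/6N sequence in Col6a2-/- mice. Within 5 Mb, 7 of 133 tested genes were called (5.26%), Col6a2 not counted, and within 20 Mb 13 of 282 (4.61%), against 5.03% of all genes.

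The genotype difference of 5-week males was compared with that of 5-week females, whose 8 libraries were separate. No gene had a called difference between the sexes (0.0%), and 253 genes (1.97%) had an unadjusted p under 0.05. That unadjusted count depended on single libraries. It was 987 once female Col6a2-/- library 4 was dropped and 190 once male Col6a2-/- library 2 was dropped, with 0 genes called in both fits. The lack of calls therefore does not show that the genotype changes were equal in the sexes. Sln changed by 4.39 in females, Mymx by 3.14, Lgals3 by 3.01, H2-Eb1 by 2.02 and Cilp by 2.25, against 5.16, 3.84, 2.92, 2.20 and 2.13 in males. Fbxo32 changed by 0.56 in females (adjusted p 0.0648) and 1.37 in males, a difference of 0.80 (SE 0.287) with an unadjusted p of 0.00897 and an adjusted p of 1.0. Timp1, an inhibitor of metalloproteinases, rose by 2.21 in females and 1.09 in males, where its adjusted p of 0.0377 was lost without WT replicate 1, 2 or 4 or Col6a2-/- replicate 1, 2 or 3 (0.0704 to 0.176).

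The difference between 5 and 25 weeks in males was called for 23 genes (0.179%), of which 21 (0.164%) had a smaller or more negative change at 25 weeks. Of the 23, 21 were also called in 5-week males, and 479 genes (3.74%) had an unadjusted p under 0.05. Aldh3a1 changed by 0.10 at 25 weeks (adjusted p 0.877), against 4.43 at 5 weeks, and its mean level at the later age was 0.076 ± 0.106 TPM in WT and 0.15 ± 0.112 TPM in Col6a2-/- mice (SD, n = 4). Mymx had 0.381 ± 0.328 TPM in 25-week Col6a2-/- males and a change of 0.39 (adjusted p 0.346). Sln had 3.2 ± 0.898 TPM there and was still called, with a change of 1.63 (adjusted p 0.0325), and so was Myl4, with 1.15 (adjusted p 0.00618). Myh3 changed by 0.77 (adjusted p 0.0543), Chrng by 0.13 (adjusted p 0.624), Chrnd by 0.04 (adjusted p 0.907) and Mymk by 0.36 (adjusted p 0.295). At 25 weeks the level of Fbxo32 was 39.2 ± 3.14 TPM in WT and 38.5 ± 8.35 TPM in Col6a2-/- mice, so the 25-week WT level lay above that of the 5-week Col6a2-/- mice. Col6a2 itself had a difference of 2.15 between ages. Its WT level was 8.41 ± 2.03 TPM at 25 weeks, and it stood at 0.0231 ± 0.00938 in Col6a2-/-.

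Cilp changed by 2.13 at 5 weeks and 1.97 at 25 weeks, with a difference of -0.16 (SE 0.448, adjusted p 1.0), and Postn by 1.82 and 2.12. The median of the 17 matricellular genes was 0.336 at 5 weeks and 0.707 at 25 weeks, while that of the myogenic list was 0.433 and 0.145, that of the receptor list 0.55 and 0.161, and that of MHC class II 2.102 and 0.97. Lgals3 changed by 2.92 and 1.58, a difference of -1.33 that was not called (adjusted p 0.257), and that of H2-Eb1 was not called either (-1.21, adjusted p 0.838). The number of genes called for the age difference was 13 without WT replicate 3, 12 without Col6a2-/- replicate 3 and 14 without WT replicate 4 of the 5-week males. Among the 25-week WT males it was 13 without replicate 1, 13 without replicate 3 and 34 without replicate 4.

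**Figure D4:**
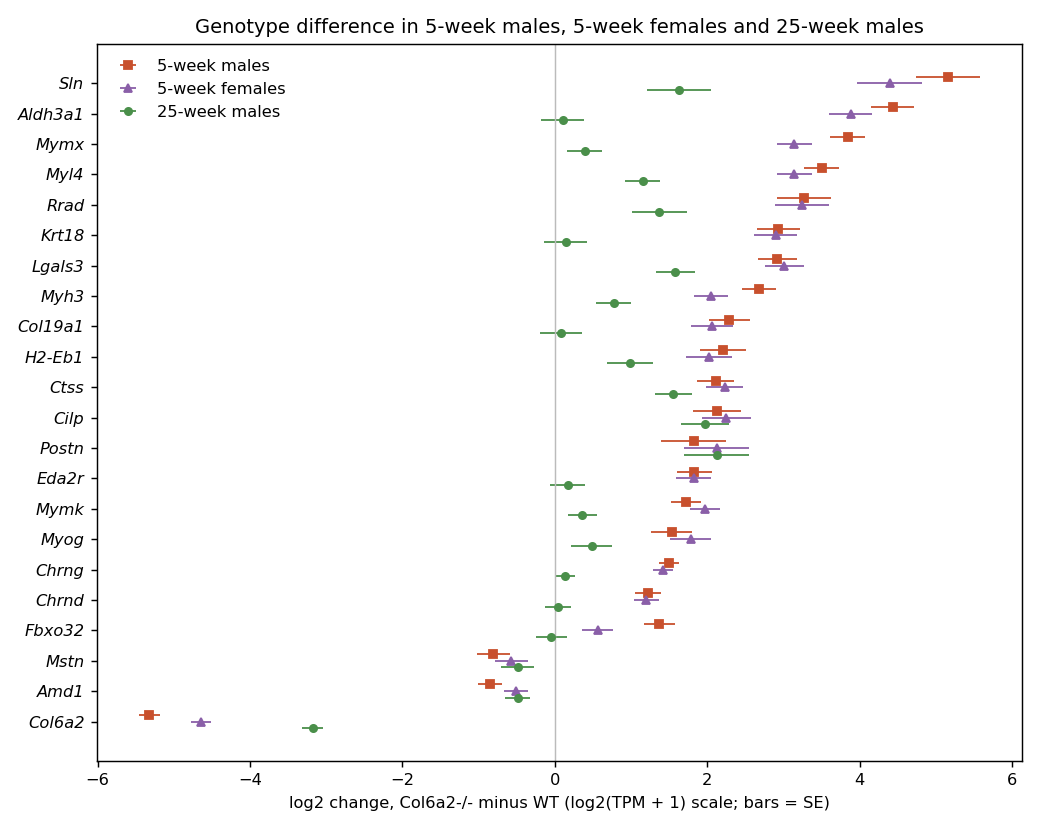
Genotype difference of 22 genes, with the log2 change (Col6a2-/- minus WT) and its SE on the horizontal axis, in 5-week males (orange squares), 5-week females (purple triangles) and 25-week males (green circles). The sexes lie near each other at 5 weeks for Rrad and Krt18, the 25-week changes of Aldh3a1, Krt18, Col19a1 and Chrng lie at 0.08 to 0.14, and Cilp and Postn lie together at both ages.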

How the data were processed

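RNA-seq of 32 mouse quadriceps libraries (8 groups of 4) was used as deposited by the authors, 1 table of genes per library with TPM, FPKM and coverage (a signal). Per the submitters' processing notes, the tools were FastQC, MultiQC, Trimmomatic, HISAT2, SAMtools and StringTie, on GRCm38/mm10, with no versions and no statement on strand. The tables deposited by the authors give no read counts, so exact depth is unknown, and the ratio of deposited coverage to FPKM served only as a relative measure of it.

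TPM was summed per gene ID (53801) and tested on the log2(TPM + 1) scale, which understates the change of low genes, where a gene reached 1 TPM in at least 4 libraries (12817). All 32 libraries were fitted with 8 group means (24 residual degrees of freedom) in limma 3.58.1 (lmFit, eBayes with trend) under R 4.3.3, with Benjamini-Hochberg adjustment. Interactions tested genotype by sex at 5 weeks and genotype by age in males. Col6a2 was also tested by an exact permutation test. The group labels do not say whether mice were littermates, and the p-values measure the spread between these libraries. The highest Pearson r between any 2 libraries was 0.9843, so none was treated as a copy. Tables and plots used Python 3.11.15 with pandas 2.3.3 and matplotlib 3.10.9.

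Named genes were the collagen VI chains, the 12 higher and 8 lower called genes with the largest change and no overlap, up to 4 called members of each of 59 gene lists, 14 genes of interest whatever their call (another that the rule named is not reported here), and the 6 strongest genes of each interaction. A further set of genes was named after its values were seen: among those in the text are Myf5, Myf6, Myod1, Chrnd, Chrne, Chrnb1, Musk, Ncam1, Runx1, Col1a1, Col3a1, Fn1, Csf1r, Cd68, Mrc1, Cd163, C1qc, Myh1, Myh2, Myh8, Actc1, Tnnt1, Acta1, Ckm, H2-DMa, H2-DMb1, Amd-ps3 and Amd-ps4 and all genes of the closing observations. The members and lists were chosen with earlier results of these data known. Promoter windows come from RefSeq on GRCm38.p6. On simulated TPM for the 5-week male comparison with 12817 genes, the fit was checked with known changes added to a set of genes. The outcome is not reported here, and no call rests on it.

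Alternatives were another pseudocount, other filters and scalings, no trend, a replicate block, fewer groups in the fit, and each library left out in turn.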

Additional observations from a re-analysis of the deposited data

Results flagged for a closer look

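A single library lay far from the other 3 of its group, by Dixon's test at the 95% level, in 9 of 278 groups of 4 values, and chance gives about 1 in 20. Rrad had 7.83 TPM in Col6a2-/- replicate 4, against 26.2 to 27.5 TPM in the others. Mfap5, a microfibril protein, had 32.7 TPM and C4b 17.4 TPM in Col6a2-/- replicate 1, against 18.7 to 20.7 and 5.78 to 7.1 TPM. Acta1 had 9450 TPM in Col6a2-/- replicate 3, against 6999 to 7134 TPM. In WT, H2-Eb1 had 4.43 TPM and C1qb 9.61 TPM in replicate 2, below 7.8 to 8.34 and 12.7 to 13 TPM. Cdkn1a had 4.78 TPM in WT replicate 4, above 1.51 to 1.75 TPM, and Dbp, an output gene of the circadian clock, had 6.56 TPM there, below 27.1 to 28.7 TPM. Mmp19 had 1.71 TPM in WT replicate 1, above 1.13 to 1.21 TPM.

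The genotype change of these genes differed between 25 and 5 weeks in males, given as the later minus the earlier change with the adjusted p of limma's interaction test. Fusion and receptor genes differed by -3.44 for Mymx (7.14e-08), -1.36 for Mymk (0.0213), -1.37 for Chrng (0.000122) and -1.18 for Chrnd (0.0219). Sln, which encodes the pump inhibitor sarcolipin, differed by -3.54 (0.00232). The sarcomere genes Myl4 and Myh3 differed by -2.35 (0.000122) and -1.91 (0.00205). The change of Fbxo32 differed by -1.42 (0.0219) and that of Eda2r by -1.66 (0.021). Aldh3a1 stood at -4.34 (7.14e-08) and the keratins Krt18 and Krt8 at -2.79 and -1.55 (0.000211 each). Col19a1, a minor collagen, stood at -2.21 (0.00392) and Igfbp2, a binder of insulin-like growth factors, at -0.99 (0.0219). Mfsd7a, a transporter, stood at -1.67 (0.00119) and Plekhh1 at -1.07 (0.000408), with 14.8% of its exons shared with Pigh. Col6a2 itself stood at 2.15 (5.32e-08), with a lower WT level at 25 weeks.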

How the results depend on the processing

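The count of called genes in 5-week males (645) was 295 with a minimum of 5 TPM, 1082 under median-of-ratios scaling, 1151 under quantile normalization, 1346 when scaled without mitochondrial and Rn7s genes, and 324 with only the 5-week libraries. It ran from 313 to 1003 when 1 library was left out. The sex difference (0 genes) gave 5 without a filter and 0 to 1 with 1 library left out. The age difference (23 genes) gave 14 with a pseudocount of 0.1, 59 without a filter, 13 at 5 TPM, 45 under median-of-ratios, 62 under quantile normalization, and 12 to 34 with 1 library left out. Called neighbours of Col6a2 (7) were 3 at 5 TPM, 14 when scaled without mitochondrial and Rn7s genes, and 4 to 10 with 1 library left out. The Col6a2 difference ran from -5.45 to -5.22.

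Tgfb2 turned to -0.09 under median-of-ratios and -0.13 under quantile normalization, and Acta1 to 0.13 under quantile normalization. With 1 library left out, Tgfb2 ran from -0.05 to 0.16, Col1a1 from -0.52 to 0.21 and Adipoq from -0.20 to 0.93, and none of these was called. Of 114 named genes called, 74 were called under every alternative in which they were tested (at most 35, and 32 or 34 for low genes), 40 lost the call in at least 1, and 0 changed sign. With only the 8 libraries of this comparison in the fit 514 genes were called. Of the called genes described, Mt2, Mfap5, Fgfbp1, Myf5, Myf6, Rrm2, Smox, Timp1 and Adssl1 lost their call there (adjusted p 0.0504 to 0.129). With only the 5-week libraries these did too, as did Ampd1, Bax, Bgn, C130080G10Rik, C4b, Loxl1, Megf10, Mstn, Plod2, Tgfbr1 and Tpm1 (0.0528 to 0.181). A pseudocount of 0.1 ended the calls of C130080G10Rik, Loxl1, Megf10, Myf6, Rrm2 and Timp1 (0.05 to 0.146), and no filter those of Ampd1, C4b, Loxl1, Smox, Timp1 and Tpm1 (0.0538 to 0.0857). Timp1 was lost at 5 TPM (0.0506), Myf6 under median-of-ratios (0.164), Adssl1 (0.14) and Tpm1 (0.0537) when scaled without mitochondrial and Rn7s genes, and Myf6 (0.0558) and Smox (0.052) with only the male libraries. Ankrd23 was lost with a pseudocount of 0.1, no filter, 5 TPM, scaling without mitochondrial and Rn7s genes, and only the 5-week or only the male libraries (0.0529 to 0.0831). Of the genes described as not called, Tgfb3 and Chrnb1 were called in 5 alternatives, Cd163 in 6, Ckm in 5, Col3a1 in 2, and Acta1, Myh1, Myh4, Myod1 and Pdgfra in 1 (adjusted p 0.00344 to 0.0489). The cause was not tested.

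The replicate number as a block gave 638 called genes, 500 of the 583 higher and 52 of the 62 lower ones among them, 0 for the sex difference and 15 for the age difference. Among the called genes described, Megf10, Myf6, Loxl1, Bax, Timp1 and Adssl1 were not called with it (adjusted p 0.0507 to 0.0714). Deviations from the group mean of same-numbered WT and Col6a2-/- males correlated at 0.2015, 0.2324, 0.1201 and 0.0742, so the numbers were not taken to pair the mice. WT replicates 1 to 3 correlated best with their own number, and WT replicate 4 with Col6a2-/- replicate 1 (0.1658). Low TPM limits genes such as Pax7, and without counts no counting interval could be given.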

Other observations

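Keratins of simple epithelia, which adult muscle fibres hardly make, appeared in 5-week Col6a2-/- males. Krt18 had 0.0877, 0.088, 0 and 0.11 TPM in WT and 9.01, 7.82, 7.19 and 5.13 in Col6a2-/- (change 2.93, adjusted p 4.3e-08). Its partner Krt8 was listed at 0 in all 4 WT libraries and had 2.26, 2.58, 2.26 and 1.28 TPM in Col6a2-/-. The changes were 2.90 and 1.33 in 5-week females, and 0.14 and 0.06 in 25-week males. Col19a1 had 0.768, 0.553, 0.676 and 0.331 TPM in WT and 8.68, 5.31, 8.7 and 4.94 in Col6a2-/- (change 2.29, adjusted p 2.5e-06), and Col8a1, a short-chain collagen, changed by 1.81 (adjusted p 2.1e-05). Col19a1 changed by 2.06 in 5-week females. In 25-week males Col8a1 differed by 1.36 and Col19a1 by 0.08.

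Enzymes of purine nucleotides and of the glycerol phosphate shuttle were also picked after their values were seen. Ampd1, the AMP deaminase of muscle, had 381, 287, 299 and 355 TPM in WT and 229, 160.0, 260.2 and 156 in Col6a2-/- (-0.74, adjusted p 0.0283). Ampd3, the form of other tissues, had 2.83, 2.78, 2.21 and 1.79 against 7.27, 4.8, 6.37 and 5.35 TPM (change 1.03, adjusted p 2.6e-05). Adssl1, an adenylosuccinate synthase of muscle, fell by 0.39 (adjusted p 0.0231). Ampd1 lost its call without WT replicate 1 or 4 or Col6a2-/- replicate 2 or 4 (0.0694 to 0.0961), and Adssl1 without WT replicate 2 or Col6a2-/- replicate 1, 2 or 4 (0.0516 to 0.098). Gpd2, of the glycerol phosphate shuttle, fell by 0.74 (adjusted p 0.00624).

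Among genes outside the marker lists, some known from leukocytes were picked after their values were seen. Ptprc, or CD45, had 2.31, 1.84, 1.87 and 1.6 TPM in WT and 10.2, 8.58, 7.8 and 5.53 in Col6a2-/- (change 1.61, adjusted p 0.000307). Mpeg1, a pore-forming protein of macrophages, changed by 1.72 (adjusted p 3.5e-06) and the integrin Itgax by 1.14 (adjusted p 6.7e-06). Spi1 was called higher too, but not without WT replicate 2 (0.72, adjusted p 0.0557) or Col6a2-/- replicate 1 (0.68, adjusted p 0.0826). The 13 imprinted growth genes summed to 347 to 649.9 TPM in WT and 759 to 969.9 in Col6a2-/-, with 0 of 10 tested called. H19 differed by 1.27 (adjusted p 0.0637) and Igf2 by 0.905 (adjusted p 0.0902).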
